A study of Homo sapiens with 6 samples.

Results

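The proteasome subunit genes were examined in SKBR3 cells, a HER2-positive human breast adenocarcinoma line of epithelial type, that had been made to overexpress cortactin (CTTN), an actin-binding protein. A gene row was taken as a member when one of its names was PSMA, PSMB, PSMC, PSMD, PSME, PSMF or PSMG followed by a number, and this gave 48 members among 54644 gene rows. Of the members, 16 were constitutive or tissue-restricted subunits of the 20S core, 3 were immunoproteasome subunits, 20 carried names of the 19S cap, 5 encoded activators or an inhibitor, and 4 encoded assembly factors. Messenger RNA was sequenced from 3 libraries of stable cells carrying pLVX-CTTN, a lentiviral vector with CTTN cDNA, and from 3 libraries of stable cells carrying the pLVX vector, all selected with puromycin. The series calls these biological replicates and gives no clone or culture for each, so the p-values below measure the spread between these libraries. The libraries are named CTTN 1, 2 and 3 and control A, B and C, where the letters are only names.

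The proteasome is the protease that degrades proteins tagged with ubiquitin. Its 20S core is a barrel of alpha and beta rings, and certain beta subunits carry the active sites inside the barrel. The 19S cap recognises tagged proteins, removes the ubiquitin and unfolds the substrate with a ring of ATPases, while chaperones help the particle to assemble. Interferon-gamma induces substitute catalytic subunits that form the immunoproteasome, which favours peptides for display on MHC class I molecules. Cells that lack proteasome activity raise the transcription of most subunits together through the factor NFE2L1.

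Each library held 34887069 to 41279833 fragments assigned to genes. Abundance is given as CPM, counts relative to the scaled library total, for comparisons between libraries, and as FPKM, which also divides by transcript length, for comparisons between genes. CTTN itself stood at 103.9, 107.9 and 107.8 FPKM in control A, B and C and at 262.6, 328.9 and 179.8 FPKM in CTTN 1, 2 and 3, and its log2 fold change was 1.35 (SE 0.22, adjusted p = 0.0249 in edgeR's quasi-likelihood test). With 1 library left out at a time, that adjusted p ran from 0.000191 without CTTN 3 to 0.154 without control B, and it was above 0.05 without CTTN 1 or any control library. Across all 14433 rows tested, 606 passed an adjusted p of 0.05, which is 4.2% of them, with 2.29% higher and 1.91% lower in CTTN cells, and 462 also differed by 1.5-fold, which is 3.2%. CTTN 1 and CTTN 3 stood apart from CTTN 2 by transcript length: in the decile of shortest transcripts the median row lay 0.32 and 0.76 above the control mean on the log2 scale in CTTN 1 and 3, in the decile of longest it lay at -0.41 and -0.76, and in CTTN 2 the medians were 0.01 and -0.01. Epithelial markers were high: the 6 genes summed to 6751 to 6966 FPKM in control and 6250 to 9457 FPKM in CTTN libraries, with KRT8 at 1849 FPKM on average in control cells. The main edgeR fit called 0 of the 6. A fit with an offset for transcript length, described further on, called 3 of them, where it called 18.4% of all rows. These were KRT18 (log2 fold change -0.37), KRT19 (0.23) and ERBB2 (0.27). Of the markers of other cells, PTPRC, CD3E, COL3A1, PDGFRB, DCN and PECAM1 averaged under 0.1 FPKM in both groups. COL1A1 had enough counts for the test and was not called, and CD68 shared its row with EIF4A1 and could not be read on its own. The endothelial cadherin CDH5 was lower in CTTN cells, at 4.15 against 1.68 FPKM (log2 fold change -1.49, adjusted p = 0.00845).

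Of the 48 members, 46 had enough counts for the test. PSMA8, the alpha subunit of the testis, had 1 fragment in control B and none elsewhere. PSMB11, the catalytic subunit of the thymoproteasome, had 0 fragments in all 6 libraries, and 3 fragments, the limit that a count of 0 allows, would be 0.0727 to 0.086 CPM per library. Both genes are known for expression in a single tissue, and neither had more than that limit here.

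In control cells the tested members ran from 3.2 to 407.4 FPKM on average. PSMD3, a lid subunit of the 19S cap, was the highest at 404.4, 411.3 and 406.5 FPKM in control A, B and C. Its gene lies on chromosome 17 from 39980807 to 39997959 (GRCh38), 252.1 kb from ERBB2, the receptor gene that defines HER2-positive tumours, and ERBB2 itself averaged 1675 FPKM. Whether that position bears on the level of PSMD3 was not tested. Among constitutive 20S subunits with a row of their own, control means ran from 74.8 FPKM for PSMB2 to 332.4 FPKM for PSMA7, a range of 4.44-fold around a median of 174.0. The 6 ATPases of the 19S base lay between 54.9 FPKM for PSMC6 and 188.2 FPKM for PSMC1.

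The 2 lowest of the tested members were PSMB9 at 3.2 ± 0.5 FPKM and PSMB8 at 10.6 ± 1.37 FPKM (mean ± SD, n = 3), both immunoproteasome subunits, and the third, PSMB10, stood at 27.6 ± 3.08 FPKM. The assembly factor PSMG4 followed PSMB8 at 16.1 ± 0.629 FPKM. Control libraries agreed closely for most members, with a median coefficient of variation of 2.58% and the largest, 15.7%, for PSMB9. In 7 of the 48 rows the member shared its row with another gene. The member supplied 69.9% of the row's FPKM for PSMA1, shared with COPB1, 85.04% for PSMA6, 90.9% for PSMB10 and 92.5% for PSMB9, and more than that for PSMA2, PSMD9 and PSMF1.

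**Figure D1:**
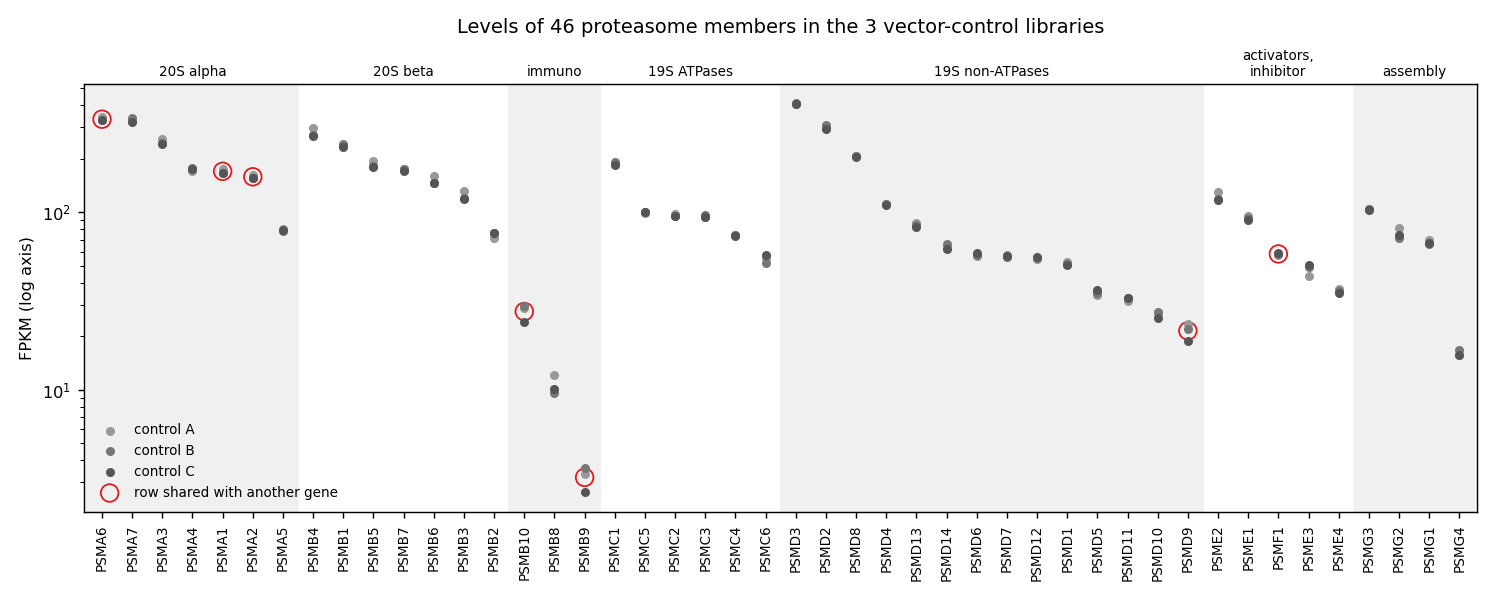
Level of each tested member in control A, B and C (grey points, FPKM on a log axis), grouped by part of the complex and ordered by control mean within it; red rings mark rows shared with another gene. PSMD3 sits at the top with 407.4 FPKM on average, and PSMB8 and PSMB9 sit below every constitutive subunit at 10.6 and 3.2 FPKM.

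The main comparison asked whether overexpression of CTTN changed the level of proteasome transcripts. Most members were higher in CTTN cells on average, but no member passed the test. The log2 fold change was positive for 41 of 46 members, against 50.7% of all rows tested, and its median over members was 0.29 against 0.01 over all rows. At an adjusted p of 0.05, 0 of 46 members were called by edgeR, against a background of 4.2%. At an unadjusted p of 0.05, 18 members passed against 30.2% of all rows: 17 were higher and 1 was lower, where all rows gave 16.3% and 14%. DESeq2 called 8 members, which is 17.4% of them, where it called 14.1% of all rows. All 8 were higher, but the calls over all rows were not split by direction for DESeq2. Limma on log2(FPKM + 1) called 0, against 1.28%. EdgeR called PSMB7 alone with library totals as the only scaling, against 3.79% of all rows, and without a filter on low counts, against 2.3%. The lowest adjusted p values in edgeR were 0.0553 for PSMB7, 0.0598 for PSMG4, 0.0875 for PSMG1, 0.0879 for PSMD3 and 0.089 for PSMD13, all higher in CTTN cells. In a bulk sample, more cells with these transcripts and more RNA per cell cannot be told apart.

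The 3 CTTN libraries did not show this to the same degree. The median member lay 0.27 above the control mean on the log2 scale in CTTN 1, 0.03 above it in CTTN 2 and 0.52 above it in CTTN 3. CTTN 1 exceeded all 3 control libraries for 40 of 46 members, CTTN 3 for 41 and CTTN 2 for 23, where over all rows the shares were 41%, 44.5% and 34.2%. The members are mostly short, and short rows in general were raised in CTTN 1 and 3. CTTN 2 had the highest CTTN level of the 3 and the smallest proteasome difference, while CTTN 3 had the lowest CTTN level and the largest proteasome difference. In 22 members all 3 CTTN libraries were above all 3 control libraries, against 19.3% of all rows, and in 1 member, PSME4, all were below, against 19.4%. Without CTTN 2, edgeR called 37 of 46 members, 36 of them higher, and it then called 47.2% of all rows, with 23% higher and 24.2% lower. Without CTTN 1 it called 0 members and 0.123% of all rows, and without CTTN 3 it called PSMB7 and PSMG4 and 8.54% of all rows.

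The FPKM of the members of each part was also summed and taken as a percentage of the library's total FPKM. The alpha genes made up 0.244%, 0.245% and 0.244% in control A, B and C and 0.247%, 0.244% and 0.254% in CTTN 1, 2 and 3, so the groups overlapped. The beta genes made up 0.203%, 0.2% and 0.198% against 0.236%, 0.212% and 0.259%, with every CTTN library higher. The 19S genes other than the ATPases made up 0.242%, 0.251% and 0.248% against 0.276%, 0.277% and 0.271%, again with every CTTN library higher and with CTTN 2 level with the other two. The assembly factors made up 0.0434%, 0.0424% and 0.0432% against 0.0493%, 0.0451% and 0.0536%, also without overlap. The ATPases made up 0.0971%, 0.1001% and 0.1003% against 0.105%, 0.1048% and 0.0994%, with CTTN 3 below control B and C, and the immunoproteasome and the activators and inhibitor overlapped too. No test was run on these sums or on differences between parts.

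**Figure D2:**
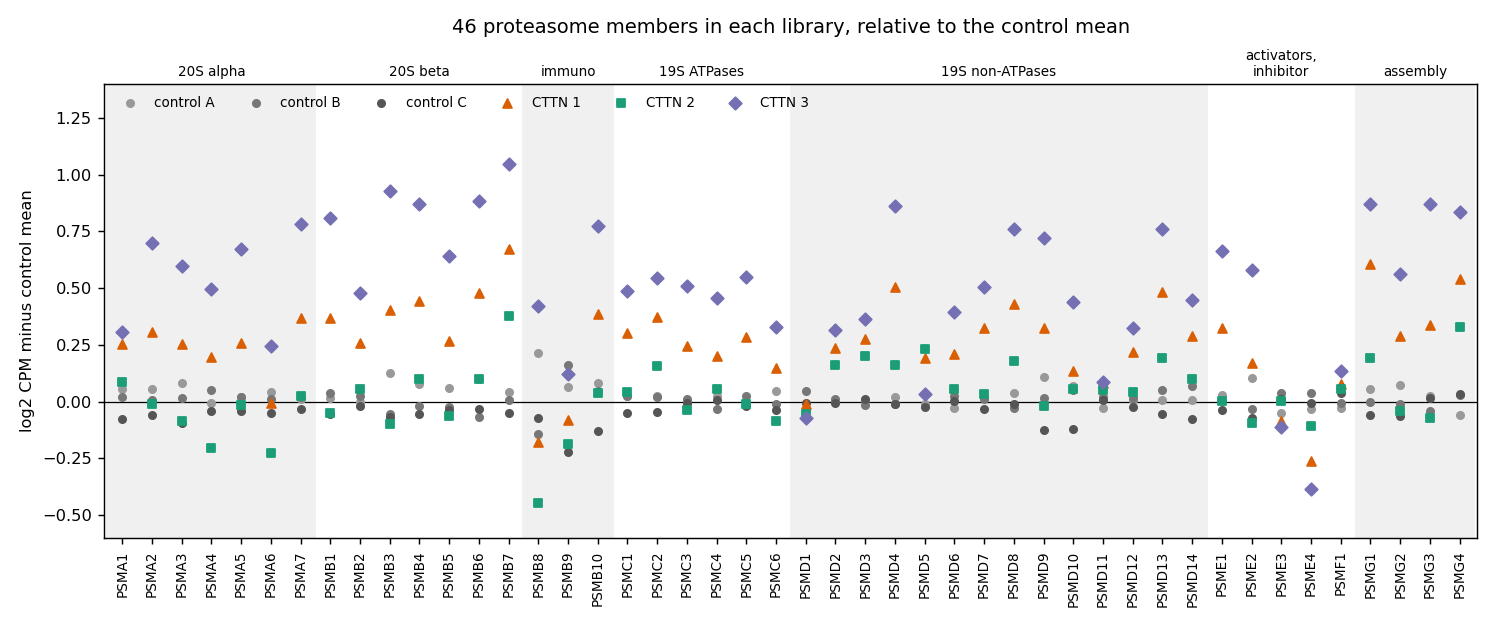
Log2 CPM of the 46 tested members in each of the 6 libraries, minus the mean of the 3 control libraries, grouped by part of the complex. CTTN 3 (purple diamonds) and CTTN 1 (orange triangles) lie above the control points for 41 and 40 members, against 44.5% and 41% of all rows, while CTTN 2 (green squares) lies above them for 23, against 34.2%.

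The alpha ring forms the gate of the 20S core. All 7 tested alpha genes had a positive log2 fold change, from 0.02 for PSMA6 to 0.42 for PSMA7 with a median of 0.28 (0.08 with an offset for transcript length and -0.01 with CTTN 2 alone, as described further on), and in 2 of the 7 all CTTN libraries were above all control libraries, against 19.3% of all rows. PSMA7 stood at 259.9, 261.3 and 252.4 CPM in control A, B and C and at 332.7, 261.9 and 443.1 CPM in CTTN 1, 2 and 3 (log2 fold change 0.42, SE 0.18, adjusted p = 0.163). Its lowest CTTN library exceeded the highest control library by less than 1 CPM, so the groups were separate only by that margin. PSMA6 stood at 386.7, 378.4 and 362.6 CPM in control cells and at 374.2, 321.2 and 444.9 CPM in CTTN cells, with CTTN 2 below every control library and CTTN 3 above (log2 fold change 0.02, SE 0.12, adjusted p = 0.936). PSMA5, with the lowest level of the ring, stood at 116.4, 116.3 and 111.5 CPM in control cells and at 137.3, 113.6 and 183.2 CPM in CTTN cells (log2 fold change 0.33, SE 0.17, adjusted p = 0.207).

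The constitutive beta subunits had the largest differences in the core. All 7 tested genes were higher on average in CTTN cells, with a median log2 fold change of 0.47 (0.15 with the length offset and 0.05 with CTTN 2 alone) and a range from 0.28 to 0.73, and in 4 of the 7 all CTTN libraries were higher, against 19.3% of all rows. PSMB7, which carries the trypsin-like site, stood at 156.4, 152.5 and 146.7 CPM in control A, B and C and at 242.5, 197.3 and 314.5 CPM in CTTN 1, 2 and 3. Every CTTN library was well above every control library, and the log2 fold change was 0.73 (SE 0.16, a 1.66-fold difference, adjusted p = 0.0553). PSMB7 was the one core gene called higher in CTTN 2 taken alone: CTTN 2 against the 3 control libraries gave a log2 difference of 0.38 (adjusted p = 8.9e-05), on the assumption that a lone library varies as the control libraries do.

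PSMB6, with the caspase-like site, stood at 105.8, 94.3 and 96.4 CPM in control cells and at 137.8, 105.9 and 182.7 CPM in CTTN cells (log2 fold change 0.52, SE 0.19, adjusted p = 0.129). Here CTTN 2 and control A were nearly equal, although the groups did not overlap. PSMB5, with the chymotrypsin-like site that is the main target of proteasome inhibitor drugs, stood at 198.9, 187.5 and 186.1 CPM in control cells and at 229.3, 182.4 and 297.3 CPM in CTTN cells (log2 fold change 0.31, SE 0.17, adjusted p = 0.235). CTTN 2 was below all 3 control libraries for PSMB5. Of the structural subunits, PSMB4 stood at 212.7, 198.8 and 193.8 CPM in control cells and at 274.2, 215.8 and 368.8 CPM in CTTN cells, with no overlap (log2 fold change 0.50, SE 0.18, adjusted p = 0.133). PSMB2, the lowest of the ring in FPKM, stood at 124.5, 126.8 and 122.9 CPM against 149.4, 129.6 and 174.0 CPM, also with no overlap (log2 fold change 0.28, SE 0.11, adjusted p = 0.16).

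The immunoproteasome genes differed from the constitutive ring in level. PSMB8 replaces PSMB5 in the immunoproteasome, PSMB9 replaces PSMB6 and PSMB10 replaces PSMB7. PSMB8 and PSMB9 lie 9.51 kb apart in the MHC class II region of chromosome 6, with TAP1, a subunit of the peptide transporter, between them, while PSMB10 lies on chromosome 16. The region from 250 bases before to 50 bases after the annotated start is shown for these 3 genes and for PSMB5, because an interferon response motif (GAAA, any 2 bases, GAAA) was looked for there. Sequences are from RefSeq on GRCh38.p14, 5′ to 3′ on the strand of the gene. Capitals mark matches of the interferon motif, of TGACNNNGC, a core of the antioxidant response element that NFE2L1 binds, and of CCAAT, the box bound by NF-Y, read on either strand.
PSMB8, chr6:32843998-32844297, minus strand: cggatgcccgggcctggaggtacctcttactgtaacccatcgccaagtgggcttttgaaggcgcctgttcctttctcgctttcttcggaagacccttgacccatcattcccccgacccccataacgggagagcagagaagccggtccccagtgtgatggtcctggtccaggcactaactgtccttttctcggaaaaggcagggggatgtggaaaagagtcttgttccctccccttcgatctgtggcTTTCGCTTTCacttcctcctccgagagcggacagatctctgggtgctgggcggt
PSMB9, chr6:32853942-32854241, plus strand: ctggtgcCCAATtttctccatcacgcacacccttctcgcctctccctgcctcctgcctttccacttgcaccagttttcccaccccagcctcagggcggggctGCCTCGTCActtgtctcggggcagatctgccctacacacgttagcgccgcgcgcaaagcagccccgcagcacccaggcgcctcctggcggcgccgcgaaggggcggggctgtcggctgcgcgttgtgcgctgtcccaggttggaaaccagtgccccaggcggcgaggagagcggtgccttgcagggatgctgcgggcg
PSMB10, chr16:67936801-67937100, minus strand: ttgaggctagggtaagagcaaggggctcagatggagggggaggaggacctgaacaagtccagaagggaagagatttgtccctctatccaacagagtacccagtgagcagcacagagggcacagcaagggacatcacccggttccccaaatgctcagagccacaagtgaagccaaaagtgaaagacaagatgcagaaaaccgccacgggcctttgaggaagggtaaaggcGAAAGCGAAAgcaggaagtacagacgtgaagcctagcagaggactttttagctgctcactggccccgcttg
PSMB5, chr14:23035171-23035470, minus strand: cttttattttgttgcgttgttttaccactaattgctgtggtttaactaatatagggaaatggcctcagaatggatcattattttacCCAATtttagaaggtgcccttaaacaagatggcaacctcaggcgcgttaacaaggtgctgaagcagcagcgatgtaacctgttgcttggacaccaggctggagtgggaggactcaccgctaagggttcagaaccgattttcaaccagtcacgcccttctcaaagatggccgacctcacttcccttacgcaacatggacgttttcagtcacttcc
PSMB8 held the interferon motif on the reverse strand starting at base -4 from the start, and PSMB10 held it on the gene strand at base -21. In PSMB9 the window held TGACNNNGC on the reverse strand and CCAAT but no interferon motif, and in PSMB5 it held only CCAAT. PSMB8 and PSMB5 each have a second annotated start whose window held none of the 3 motifs.

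None of the 3 immunoproteasome genes passed the test, and all overlapped between groups. PSMB8 stood at 12.4, 9.64 and 10.1 CPM in control A, B and C and at 9.38, 7.7 and 14.5 CPM in CTTN 1, 2 and 3 (log2 fold change -0.03, SE 0.23, adjusted p = 0.936). CTTN 1 and 2 were below every control library and CTTN 3 was above, so the CTTN libraries spread in both directions. With the length offset the log2 fold change was -0.34 for PSMB8 (adjusted p = 0.0843) and -0.42 for PSMB9 (adjusted p = 0.124). PSMB9 rested on 65 to 99 fragments per library and stood at 2.17, 2.35 and 1.69 CPM against 1.91, 1.74 and 2.27 CPM (log2 fold change -0.07, SE 0.19, adjusted p = 0.819). PSMB10 stood at 19.8, 19.3 and 17.0 CPM in control cells and at 24.6, 19.2 and 32.3 CPM in CTTN cells (log2 fold change 0.44, SE 0.19, adjusted p = 0.165). With the length offset PSMB10 was at 0.06 and with CTTN 2 alone at 0.04. PSMB8 and PSMB9 had the only negative log2 fold changes of the main test among core and immunoproteasome genes. CTTN 2 alone against the control libraries gave a log2 difference of -0.48 for PSMB8 (adjusted p = 0.0134).

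The balance between each inducible subunit and the subunit it replaces was taken as a ratio of FPKM within a library. PSMB8 was 6.26%, 5.26% and 5.57% of PSMB5 in control A, B and C and 4.18%, 4.39% and 4.98% in CTTN 1, 2 and 3. PSMB9 was 2.11%, 2.46% and 1.8% of PSMB6 in control cells and 1.32%, 1.67% and 1.13% in CTTN cells. Both ratios were lower in every CTTN library than in every control library, by 0.33 and 0.64 on the log2 scale, and in an exact two-sided permutation test each gave p = 0.1, the smallest that 3 against 3 libraries allow, with an adjusted p of 0.15 over the 3 ratios. PSMB10 was 16.5%, 16.9% and 14.1% of PSMB7 in control cells and 14.4%, 12.5% and 16.8% in CTTN cells, and these values overlapped (exact p = 0.6). Both genes of a pair enter its ratio: the log2 fold change was -0.03 for PSMB8 against 0.31 for PSMB5, and -0.07 for PSMB9 against 0.52 for PSMB6.

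**Figure D3:**
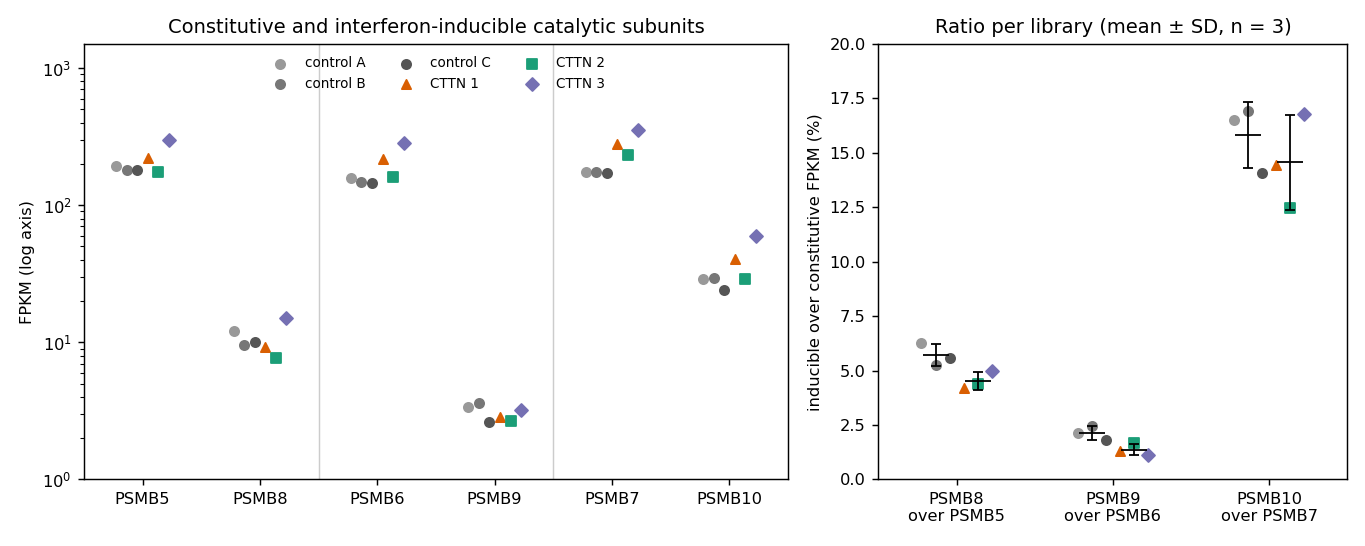
Left, FPKM on a log axis of each constitutive catalytic subunit and the interferon-inducible subunit that replaces it, with one point per library. Right, the inducible subunit as a percentage of the constitutive one per library, with the mean and SD of each group in black; PSMB8 over PSMB5 averaged 5.7% in control and 4.52% in CTTN cells, and PSMB9 over PSMB6 2.13% and 1.37%.

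The ATPases of the 19S base unfold substrates and thread them into the core. All 6 had a positive log2 fold change, from 0.14 for PSMC6 to 0.37 for PSMC2, with a median of 0.27 (0.03 with the length offset and 0.02 with CTTN 2 alone), and in 3 of the 6 all CTTN libraries were higher, against 19.3% of all rows. PSMC2 stood at 145.8, 145.3 and 138.9 CPM in control A, B and C and at 185.7, 160.0 and 208.9 CPM in CTTN 1, 2 and 3, with every CTTN library higher (log2 fold change 0.37, SE 0.11, adjusted p = 0.0943). PSMC1, the most abundant ATPase, stood at 239.0, 239.3 and 227.0 CPM against 290.2, 242.3 and 329.4 CPM (log2 fold change 0.29, SE 0.12, adjusted p = 0.157). With the length offset PSMC1 was at -0.0074 and with CTTN 2 alone at 0.04. PSMC6, the least abundant, stood at 77.7, 74.6 and 73.3 CPM against 83.5, 70.8 and 94.5 CPM, with CTTN 2 below all control libraries (log2 fold change 0.14, SE 0.12, adjusted p = 0.399).

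The remaining genes of the 19S cap encode scaffold and lid subunits, ubiquitin receptors and the deubiquitinase PSMD14, and the PSMD series also names PSMD5, PSMD9 and PSMD10, chaperones that bind the ATPases during assembly. Of the 14 genes, 13 had a positive log2 fold change, with a median of 0.26 (0.18 with the length offset and 0.08 with CTTN 2 alone), and in 10 all CTTN libraries were higher, against 19.3% of all rows. PSMD4, a ubiquitin receptor, had the largest fold change of the cap: it stood at 156.1, 152.4 and 152.8 CPM in control A, B and C and at 218.3, 171.9 and 279.4 CPM in CTTN 1, 2 and 3 (log2 fold change 0.54, SE 0.17, adjusted p = 0.102). PSMD3 stood at 857.0, 844.2 and 860.8 CPM in control cells and at 1034, 982.4 and 1100.3 CPM in CTTN cells (log2 fold change 0.28, SE 0.08, adjusted p = 0.0879). Every CTTN library was above every control library for both genes.

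PSMD9, a chaperone with the lowest level of the cap, stood at 28.3, 26.6 and 24.03 CPM against 32.99, 25.9 and 43.6 CPM, and these overlapped (log2 fold change 0.38, SE 0.19, adjusted p = 0.205). PSMD13, a lid subunit, and PSMD8, another, had log2 fold changes of 0.50 and 0.48 with adjusted p values of 0.089 and 0.0988. PSMD1, a scaffold subunit, was the one gene of the cap with a negative value, at 163.7, 173.5 and 167.6 CPM against 166.9, 161.7 and 159.8 CPM (log2 fold change -0.05, SE 0.07, adjusted p = 0.651). Its direction turned on the FPKM scale, where limma on log2(FPKM + 1) gave 0.24 (adjusted p = 0.386), and PSMD11 and PSMD12 turned to -0.047 and -0.023 there.

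Activators open the core without the 19S cap. PSME1 and PSME2, the interferon-inducible pair that forms the activator PA28, lie 4.4 kb apart on chromosome 14. PSME1 stood at 95.3, 93.9 and 90.9 CPM in control cells and at 117.1, 93.5 and 147.9 CPM in CTTN cells (log2 fold change 0.36, SE 0.16, adjusted p = 0.177). PSME2 stood at 127.4, 115.8 and 112.5 CPM against 133.1, 111.0 and 176.9 CPM (log2 fold change 0.24, SE 0.17, adjusted p = 0.324), so both genes of the pair overlapped between groups. With the length offset PSME1 was at 0.02 and PSME2 turned to -0.11, and with CTTN 2 alone they were at 0.002 and -0.096. PSME4, which encodes the large nuclear activator PA200, went the other way: it stood at 168.4, 176.9 and 171.2 CPM in control A, B and C and at 143.7, 160.0 and 131.8 CPM in CTTN 1, 2 and 3, lower in every CTTN library (log2 fold change -0.25, SE 0.09, adjusted p = 0.139). With the length offset PSME4 was at -0.03 (adjusted p = 0.737) and with CTTN 2 alone at -0.11. PSME3, the nuclear PA28 subunit, and PSMF1, an inhibitor of the core in vitro, had log2 fold changes of -0.07 and 0.09. The median over the 5 genes was 0.09, or 0.02 with the length offset and 0.002 with CTTN 2 alone.

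The assembly factors PSMG1 to PSMG4 pair up to guide the alpha ring together. All 4 were higher on average in CTTN cells and their median log2 fold change was 0.51, or 0.17 with the length offset and 0.08 with CTTN 2 alone. PSMG4 stood at 12.7, 13.6 and 13.6 CPM in control A, B and C and at 19.6, 16.9 and 24.2 CPM in CTTN 1, 2 and 3, with no overlap (log2 fold change 0.60, SE 0.14, a 1.52-fold difference, adjusted p = 0.0598). PSMG1 also had no overlap, at 55.0, 52.8 and 50.8 CPM against 80.6, 60.4 and 97.0 CPM (log2 fold change 0.59, SE 0.17, adjusted p = 0.0875). PSMG3, the most abundant of the 4, stood at 92.7, 88.5 and 91.9 CPM against 115.0, 86.5 and 166.8 CPM, with CTTN 2 below all control libraries (log2 fold change 0.43, SE 0.22, adjusted p = 0.212). PSMG2 had the smallest log2 fold change of the 4, 0.29 (adjusted p = 0.22).

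Proteasome transcripts are mostly short, and transcript length moved with the fold change across all rows. Over the 14433 rows tested, Spearman's rho between length and log2 fold change was -0.55, and over the 46 members it was -0.50, both across genes that share the same 6 libraries. Members had lengths from 763 to 4160 nt, and 33 of the 46 lay in the 3 shortest of 10 length deciles. The median log2 fold change of all rows was 0.39 in the shortest decile and -0.36 in the longest. Compared with the median of its own decile, the log2 fold change was higher in 34 of 46 members, with a median excess of 0.09. All 14 PSMD genes were above their decile, by 0.01 for PSMD10 up to 0.32 for PSMD5, and PSMB7 was above it by 0.42, the most of any member. PSMB9, PSMB8 and PSMA6 were the furthest below, at -0.45, -0.34 and -0.29. PSME4, at 4160 nt, lay at the median of its decile.

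**Figure D4:**
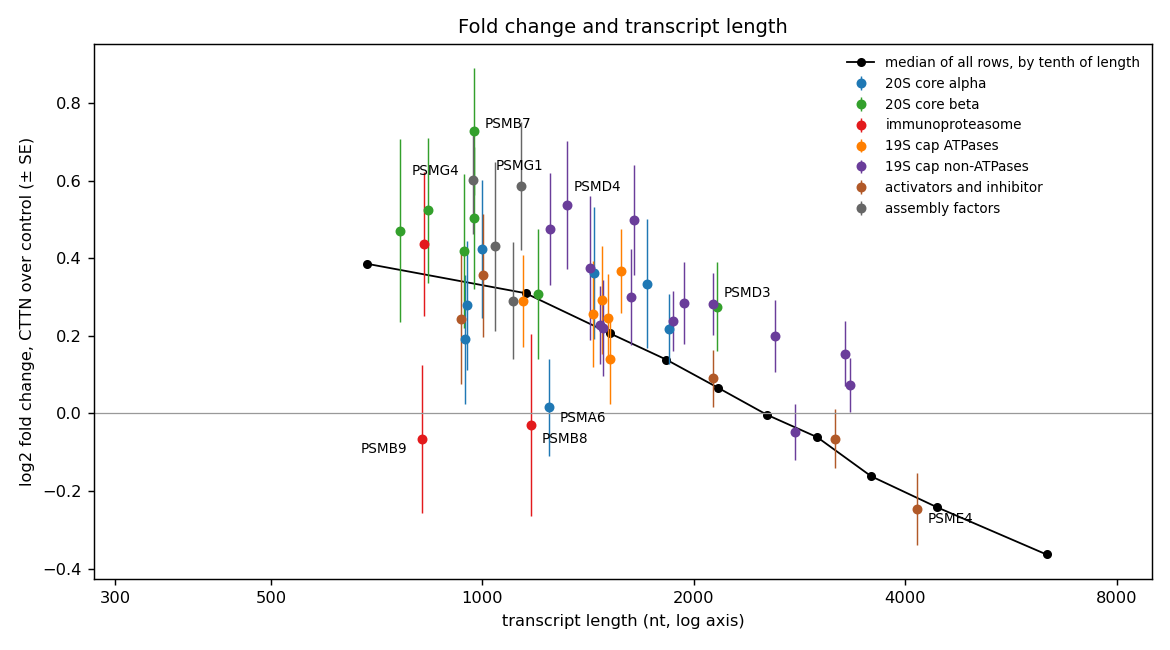
Log2 fold change (CTTN over control, with SE bars) of each tested member against its transcript length on a log axis, coloured by part of the complex; the black line joins the medians of all tested rows in 10 length deciles. The line runs from 0.39 to -0.36, PSMB7 lies 0.42 above the median of its decile, and PSMB8 and PSMB9 lie below it.

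A fit with an offset for transcript length in each library, added after the trend had been seen, called 10 of 46 members where it called 18.4% of all rows. In the higher direction 19.6% of members were called, against 9.82% of all rows, and in the lower direction 2.17%, against 8.6%. The median log2 fold change of members in that fit was 0.07. The 9 higher members were PSMB7 (log2 fold change 0.38, SE 0.04, adjusted p = 0.00101), PSMD13 (0.31), PSMD5 (0.27), PSMG1 (0.27), PSMD4 (0.27), PSMG4 (0.26), PSMD3 (0.21), PSMD8 (0.19) and PSMC2 (0.17). PSMA6 was lower (log2 fold change -0.26, SE 0.04, adjusted p = 0.00445), in a row that it shares with KIAA0391. CTTN 2 alone, the library without the length trend, against the 3 control libraries gave 8 called members where 14.1% of all rows were called, 7.13% higher and 6.98% lower: PSMB7, PSMG4, PSMD5, PSMD3 and PSMD13 were higher and PSMB8, PSMA6 and PSMA4 were lower. Both fits use CTTN 2 and the control libraries. The number of members with a positive log2 fold change was 35 of 46 with the offset and 27 of 46 with CTTN 2 alone.

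Within some genes the FPKM assigned to short and long transcript models also differed between libraries, and 3 members with such a difference are described here, chosen after their values were seen. For PSME4 the model of 7099 nt took 47.2%, 56.2% and 54.9% of the gene's FPKM in control A, B and C and 61.0% in CTTN 2, but 18.4% in CTTN 1 and 8.19% in CTTN 3. The model of 1422 nt took 29.6%, 27.6% and 23.1% in control cells and 22.2% in CTTN 2, but 54.8% in CTTN 1 and 73.8% in CTTN 3. Because FPKM divides by the length of the models in use, PSME4 stood at 36.9, 35.9 and 35.2 FPKM in control cells and at 44.99, 32.3 and 61.7 FPKM in CTTN 1, 2 and 3, higher in CTTN 1 and 3, where its CPM was lower in all CTTN libraries. The direction for PSME4 therefore depended on the scale, and limma on log2(FPKM + 1) gave a log2 fold change of 0.31.

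PSMD1 and PSMD2, the scaffold pair of the 19S base, showed the same pattern of models. The 3326 nt model of PSMD1 took 73.1%, 84.9% and 88.9% in control A, B and C, 89.99% in CTTN 2, 53.3% in CTTN 1 and 9.4% in CTTN 3. The 970 nt model of PSMD2 took 43.9%, 41.1% and 39.9% in control cells, 37.4% in CTTN 2, 56.9% in CTTN 1 and 72.7% in CTTN 3. CTTN 2 lay with the control libraries in all 3 genes, and CTTN 3 lay furthest from them. Over all members, the FPKM-weighted model length was below that of all 3 control libraries in 19 of 46 members for CTTN 1, 15 for CTTN 2 and 24 for CTTN 3, where all rows gave 31%, 23.3% and 40.4%. The median change of that length over members was -0.15%, -0.071% and -1.09%. Some other members went the opposite way in CTTN 1 and 3: the weighted length was 3231 nt on average in control cells and 3511 and 3618 nt in CTTN 1 and 3 for PSMD11, 2491 against 2774 and 3087 nt for PSMD12, and 3138 against 3307 and 3374 nt for PSME3. RNA quality per library was not analysed here, so its part in the length trend was not tested.

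**Figure D5:**
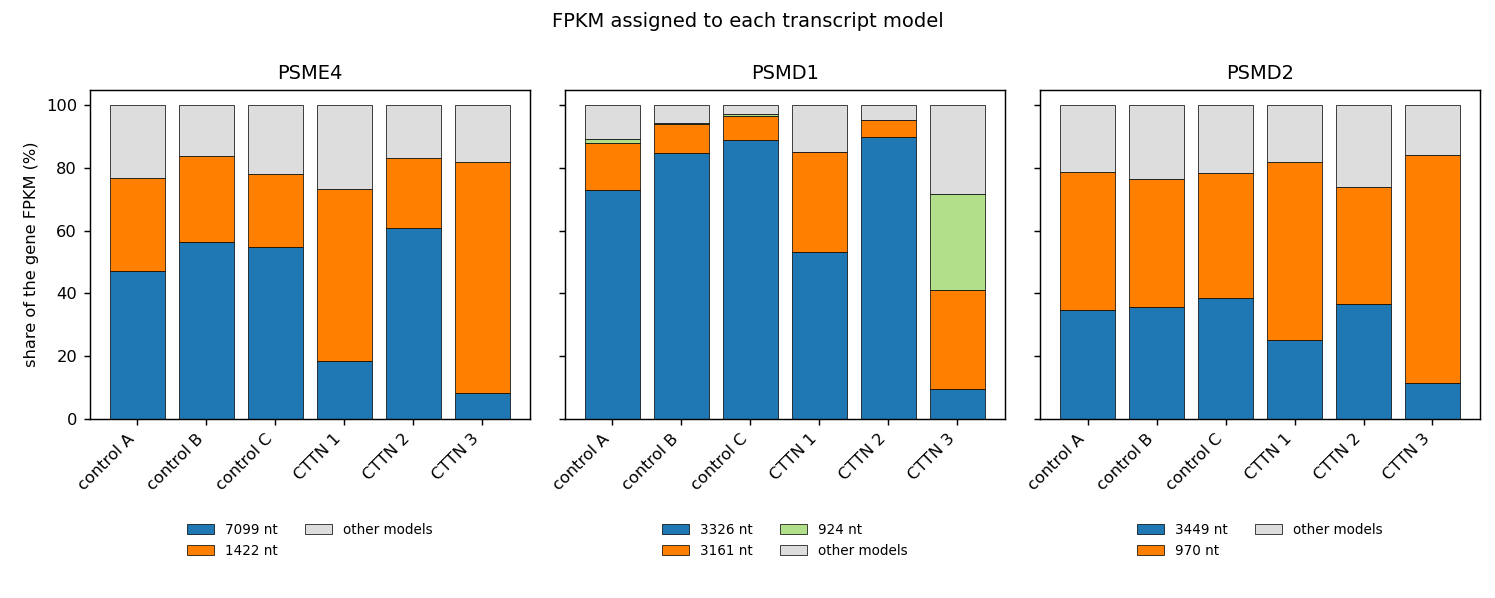
Share of the gene's FPKM that was assigned to its leading transcript models, named by length in nt, in each library for PSME4, PSMD1 and PSMD2. CTTN 2 resembles the 3 control libraries, while the longest model of PSME4 takes 18.4% in CTTN 1 and 8.19% in CTTN 3.

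More than 1 start site above 1 FPKM in control cells was listed for 31 members, and in 11 of these the leading site held over 90% of the start-site FPKM while in 5 it held under 60%. PSMB8 used 2 start sites, and the leading one held 72.8%, 65.2% and 71.2% in control A, B and C and 59.7%, 75.2% and 75.5% in CTTN 1, 2 and 3. These shares overlapped between groups, as they did for PSMB10, whose leading site held 66.6% to 69.0% in control cells and 68.3% to 71.9% in CTTN cells. The second site of PSMB10 held 27.1%, 22.7% and 26.3% in control A, B and C and 18.4%, 20.2% and 19.6% in CTTN 1, 2 and 3, lower in every CTTN library, and was not tested.

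Genes that work with the proteasome are read against 4.2% of all rows called, 30.2% with an unadjusted p under 0.05 and 50.7% with a positive log2 fold change. Positive values were found in 7 of 12 partners of the 26S particle, 5 of 8 genes that control transcription of the subunits and 8 of 14 genes that supply or deliver ubiquitin, with medians of 0.14, 0.07 and 0.11. The fit with the length offset called 1, 3 and 2 genes of these lists, where it called 18.4% of all rows. Of the partners, 0 were called by edgeR and 6 had an unadjusted p under 0.05, with log2 fold changes from -0.42 for UBE3C, a ligase bound to the particle, to 0.71 for SEM1, a small lid subunit. POMP, the chaperone that completes the core, stood at 0.51 (adjusted p = 0.139) and ADRM1, a ubiquitin receptor, at 0.39 (adjusted p = 0.134). With the length offset UBE3C was at -0.17, SEM1 at 0.36, POMP at 0.23 and ADRM1 at 0.17. SEM1 was the one partner called in that fit (adjusted p = 0.0104), and with CTTN 2 alone its log2 difference was 0.26. Of the genes for transcription, 0 were called and 2 had an unadjusted p under 0.05, the small MAF partners MAFG, in a row shared with SIRT7, at 0.20 (adjusted p = 0.132) and MAFK at 0.17 (adjusted p = 0.159). Both passed with the length offset, at 0.25 (adjusted p = 0.011) and 0.30 (adjusted p = 0.0161). NFE2L1 stood at -0.19 (adjusted p = 0.348), its relative NFE2L3 at 0.17, and the row of the protease DDI2, which activates NFE2L1, at -0.30 (adjusted p = 0.408, shared with RSC1A1). With the length offset NFE2L1 was at 0.03, DDI2 at 0.17 (adjusted p = 0.0515) and NFE2L3 at 0.24 (adjusted p = 0.0497), and with CTTN 2 alone DDI2 was at 0.22. Of the ubiquitin genes, 0 were called and 4 had an unadjusted p under 0.05. The ubiquitin-activating enzyme UBA6 stood at -0.40 (adjusted p = 0.117), and at 0.048 with the length offset, so its direction turned. The segregase VCP and its cofactor NPLOC4 passed with the offset, at 0.38 (adjusted p = 0.0265) and 0.27 (adjusted p = 0.0106).

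The 10 interferon-regulated genes of antigen presentation lay on 9 rows, since 2 of them shared a row. Of the 9 rows, 1 was called, and it was lower, and 5 had an unadjusted p under 0.05, against 4.2% and 30.2% of all rows. The fit with the length offset called 3 of the 9, against 18.4% of all rows. TAP2, whose gene lies 1.98 kb from PSMB8 and whose row is shared with HLA-DOB, stood at 72.6, 74.3 and 78.4 CPM in control A, B and C and at 56.6, 60.2 and 53.2 CPM in CTTN 1, 2 and 3, lower in every CTTN library (log2 fold change -0.41, SE 0.08, adjusted p = 0.0466). That call was lost when control A, B or C or CTTN 1 was left out, with adjusted p values from 0.18 to 0.222. It was also lost with library totals only, without a filter on low counts, with limma and with the length offset, where the log2 fold change was -0.19 (adjusted p = 0.0804), and over all alternatives its adjusted p ran from 0.00268 to 0.222. TAP1, next to PSMB8 and PSMB9, stood at 43.8, 45.5 and 46.7 CPM against 37.1, 36.7 and 35.5 CPM (log2 fold change -0.32, SE 0.08, adjusted p = 0.067), and with the length offset it passed (log2 fold change -0.28, adjusted p = 0.0102). CTTN 2 alone against the control libraries gave a log2 difference of -0.32 for TAP2 and -0.31 for TAP1.

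In the promoter windows of RefSeq, 42 of the 48 members had at least 1 entry, with 51 windows of 300 bases in all. TGACNNNGC was in 15 of the members' windows, 29.4% against 13.3% of all 35116 windows. The interferon motif was in 7, which is 13.7% against 3.57%, and CCAAT in 20, which is 39.2% against 34.6%. The 7 members with the interferon motif were PSMA4, PSMB4, PSMB8, PSMB10, PSME1, PSME2 and PSMG4. Their log2 fold changes ran from -0.03 for PSMB8 to 0.60 for PSMG4, and in PSMG4 and PSMB4 all CTTN libraries were above all control libraries, 2 of the 7 against 19.3% of all rows. A match describes the letters of the window only. No window was listed for PSMA7, PSMB1, PSMB6, PSMB7, PSMD4 and PSMG3.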

How the data were processed

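Messenger RNA from 3 control and 3 CTTN libraries of SKBR3 cells was sequenced after poly(A) selection with a stranded kit. Per the labels, the authors used bcl2fastq 2.20.0, Trimmomatic, STAR and Cufflinks, with GRCh38. The deposited estimated counts per gene were whole fragments that the authors had divided by a size factor for each library: multiplied out, 100% were whole within 0.01 below 1000 fragments. The deposited FPKM values of genes, start sites and transcript models were made by the authors with the same program.

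Here the counts were rounded, filtered with filterByExpr, scaled by TMM and tested with edgeR 4.0.16 (quasi-likelihood test, Benjamini-Hochberg adjustment over all rows tested, threshold 0.05). DESeq2 1.42.0, limma 3.58.1 and other filters, scalings and sets of libraries were alternatives, and the scripts were tested on simulated data. Ratios were compared with exact permutation tests (scipy 1.17.1). Column names gave the CTTN replicate numbers but not agreed ones for the control, whose libraries carry letters. Genes given in full were the catalytic and immunoproteasome subunits, any member called, and in each part the highest and lowest in control FPKM and the largest fold change, and other genes were added after their values were seen. The members and lists were chosen with earlier results of these data known. Depth was 34887069 to 41279833 fragments per library, and limits given for low counts cover counting error only. Values of some list genes are not reported here.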

Additional observations from a re-analysis of the deposited data

How the results depend on the processing

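No paired analysis was possible because the control columns carry no agreed replicate number, so the planned fit with a replicate block was not run. The number of genes called, 606, became 1919 with DESeq2, 185 and 180 with limma on log2(FPKM + 1) and log2(FPKM + 0.1), and 15 to 6953 with 1 library left out (15 without control B, 6953 without CTTN 2). The number of members called, 0, became 8 with DESeq2, 1 with library totals only, 1 without a filter on low counts, and 0 to 37 with 1 library left out. Alternatives chosen after seeing the data were a transcript length offset (2658 genes, 10 members) and CTTN 2 alone against the control libraries (2128 genes, 8 members, the lone library being assumed to vary like the others). The log2 fold change of CTTN was 1.10 to 1.57 with 1 library left out. The log2 difference of summed immunoproteasome FPKM went from 0.40 to -0.045 without joined rows, where PSMB9 and PSMB10 drop out and PSMB8 alone remains.

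Positive log2 fold changes went from 41 of 46 members to 35 with the length offset and 27 with CTTN 2 alone. With the length offset the log2 fold change was -0.26 for PSMA6, -0.0074 for PSMC1, -0.070 for PSMC6 and -0.11 for PSME2, and of the others PSMA3, PSMA4 and PSMG2 also turned negative and PSME3 positive. With CTTN 2 alone it was -0.014 for PSMA5, -0.23 for PSMA6, -0.065 for PSMB5, -0.088 for PSMC6, -0.024 for PSMD9, -0.096 for PSME2 and -0.074 for PSMG3, and PSMA2, PSMA3, PSMA4, PSMB1, PSMB3, PSMC3, PSMC5 and PSMG2 also turned negative and PSME3 positive. PSMA6 was at -0.037 with library totals only, and with limma on log2(FPKM + 1) and log2(FPKM + 0.1) PSME4 was at 0.31 and 0.31 and PSMD1 at 0.24 and 0.24, and PSMD11 and PSMD12 turned negative in both. With 1 library left out, PSMA6 ran from -0.11 to 0.12, PSMB8 from -0.33 to 0.15 and PSMB9 from -0.20 to 0.035. The cause was not tested. Low counts limit PSMB9 most, at 65 to 99 fragments per library.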
